A study of Homo sapiens with 12 samples.

Results

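The genes described here are 10 regulators of mitosis, taken by their names from the deposited gene table: the cyclins CCNB1, CCNB2 and CCNA2, their kinase partner CDK1, the phosphatases CDC25B and CDC25C, the kinases PLK1, AURKA and AURKB, and the anaphase activator CDC20. All 10 were found among the 59577 genes of the table, and all 10 passed the minimum mean of 1 TPM (transcripts scaled to the total and to length) that left 14520 genes for testing. They were selected by name, with earlier results of these data already known. RNA came from H1299, an established human lung cancer cell line that the labels call lung adenocarcinoma. In the normoxia group (n = 6) the cells were kept in a gas mix of 21% O2, 74% N2 and 5% CO2. In the hyperoxia group (n = 6) they spent 24 h in an incubator set to 60% O2, 35% N2 and 5% CO2. The comparison asks which transcripts of untransfected tumour cells differ under supplemental oxygen.

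Cyclins are the regulatory subunits of cyclin-dependent kinases. Cyclin A2 works with its kinases from S phase into early mitosis, and the B cyclins bind CDK1 to drive entry into mitosis. CDC25 phosphatases remove the inhibitory phosphates from CDK1, PLK1 and the Aurora kinases build the spindle and steer chromosome segregation and cytokinesis, and CDC20 directs the anaphase-promoting complex (APC/C) to destroy the B cyclins. In proliferating cells the transcripts of these genes are low in G1 and climb toward G2 and M. A bulk RNA level therefore depends on how many cells are in those phases and on how much each cell makes, and the fraction of cells in each phase and the RNA per cell cannot be told apart here.

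Each of the 10 transcripts had a lower mean at 60% O2 than under normoxia, and 8 of the 10 fell by the test used throughout (limma on log2(TPM + 1), Benjamini-Hochberg adjusted p under 0.05 over all tested genes). The background for that count is that 5.63% of all tested genes were called lower and 11.7% higher. That split of 818 lower and 1698 higher calls became 1277 and 1279 after median-of-ratios scaling, under which all 10 were called lower. PLK1 was lower by 30.6%, CDC20 by 24.0%, AURKA by 22.5%, CCNB1 by 20.4% and CDC25C by 20.1%. AURKB fell with a mean 13.0% lower, CCNB2 with a mean 10.97% lower and CDK1 with a mean 7.88% lower. CCNA2 and CDC25B did not pass. The median log2 fold change of the 10 was -0.25, against 0.03 for all tested genes.

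The summed level of the 10 transcripts was 1678 ± 55.6 TPM in normoxia and 1374 ± 23.9 TPM in hyperoxia (SD, n = 6 each). It ranged from 1626 to 1755 TPM in normoxia and from 1340.4 to 1402 TPM in hyperoxia, so the groups did not overlap. None of the 10 was lower by 1.5 times or more, a size reached by 0.51% of all tested genes among those called lower.

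**Figure D1:**
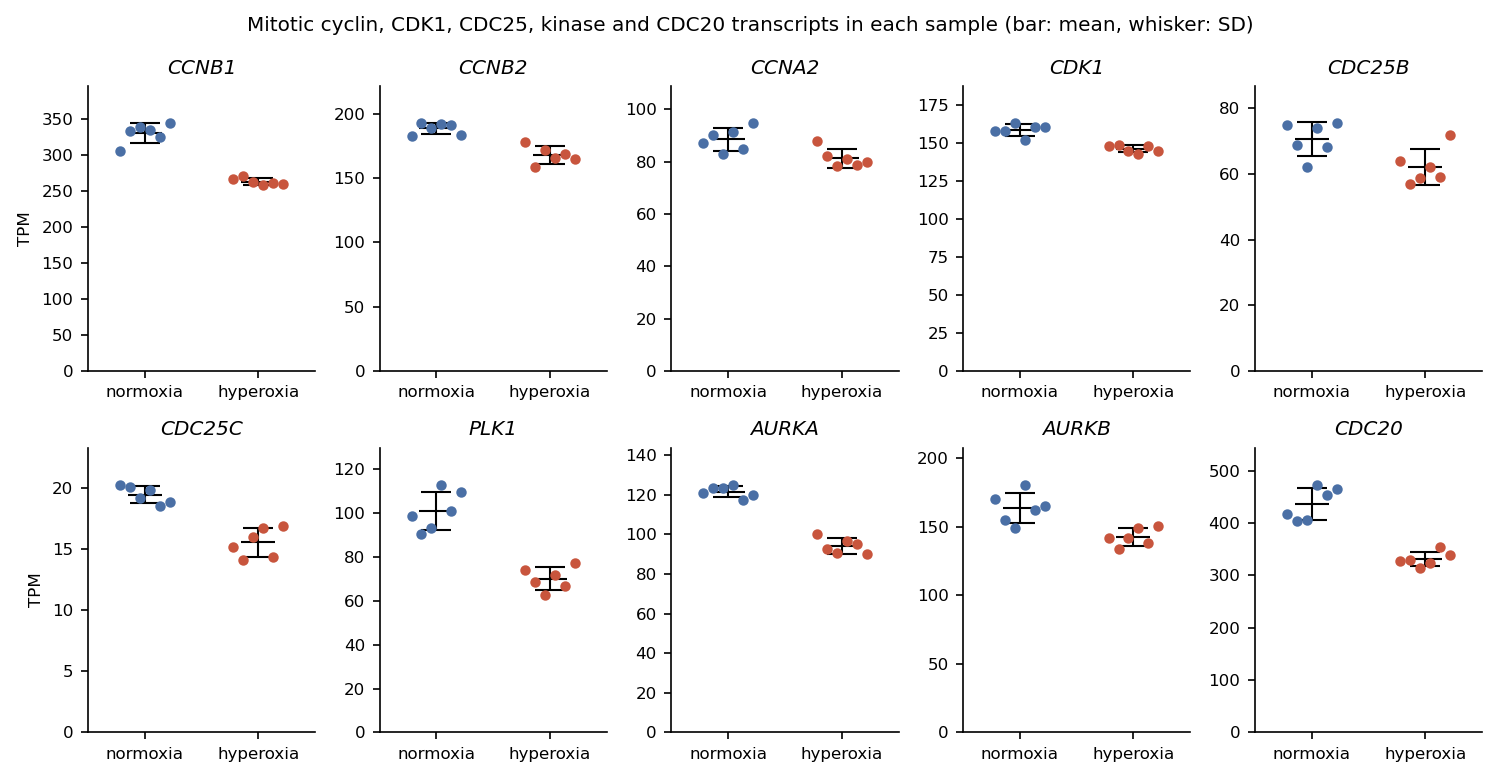
TPM of the 10 transcripts in each sample (y axis, from 0), with normoxia in blue and hyperoxia in red, samples in replicate order from left to right, bars at the group mean and whisker lengths of 1 SD (n = 6 each). The groups are separate for CCNB1, CCNB2, CDK1, CDC25C, PLK1, AURKA and CDC20, and they overlap for CCNA2, CDC25B and AURKB.

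Promoter sequence is shown because cell cycle genes of this kind are known for 2 short elements that the choice of genes did not use. One is the cell cycle genes homology region (CHR), with the letters TTTGAA, to which the MuvB complex binds. The other is the CCAAT box, bound by NF-Y. RefSeq promoters (GRCh38.p14, 250 bases before to 50 after each start) matched 9 of the 10 genes by symbol, in 17 entries; AURKA had none. Each motif was searched on both strands, and TTTAAA and CTTGAA were searched as variants of the first. TTTAAA reads the same on both strands, and no run of letters can match more than 1 of the 4 motifs in full. The share of all 35116 promoters that held a motif was 15.2% for TTTGAA, 12.2% for TTTAAA, 11.2% for CTTGAA and 34.6% for CCAAT.

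The 100 bases before the start are printed 5′ to 3′ on the gene's strand for 7 genes, with these motifs in capitals. For CDC25C (4 entries) and CDK1 (2 entries) the printed entry was picked because it holds both TTTGAA and CCAAT in this window. AURKB and CDC25B also had entries but are not printed, so the display is not an even sample of the 9 genes. CCAAT on the other strand reads ATTGG. The windows are chr16:23678789-23678888 (plus strand, PLK1), chr1:43358881-43358980 (plus, CDC20), chr5:69167050-69167149 (plus, CCNB1), chr5:138331805-138331904 (minus, CDC25C), chr15:59105046-59105145 (plus, CCNB2), chr10:60778378-60778477 (plus, CDK1) and chr4:121823884-121823983 (minus, CCNA2).
PLK1: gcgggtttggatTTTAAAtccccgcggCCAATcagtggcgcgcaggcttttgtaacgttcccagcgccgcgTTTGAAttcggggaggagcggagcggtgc
CDC20: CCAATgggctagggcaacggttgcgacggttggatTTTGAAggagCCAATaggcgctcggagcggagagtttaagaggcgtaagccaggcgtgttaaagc
CCNB1: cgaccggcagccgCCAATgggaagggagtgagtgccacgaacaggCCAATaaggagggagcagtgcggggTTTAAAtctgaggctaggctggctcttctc
CDC25C: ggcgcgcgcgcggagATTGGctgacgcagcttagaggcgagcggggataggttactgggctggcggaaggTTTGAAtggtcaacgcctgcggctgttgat
CCNB2: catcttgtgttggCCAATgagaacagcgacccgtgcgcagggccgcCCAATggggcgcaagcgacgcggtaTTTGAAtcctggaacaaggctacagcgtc
CDK1: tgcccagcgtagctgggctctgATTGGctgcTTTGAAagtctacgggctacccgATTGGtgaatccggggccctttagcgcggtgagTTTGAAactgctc
CCNA2: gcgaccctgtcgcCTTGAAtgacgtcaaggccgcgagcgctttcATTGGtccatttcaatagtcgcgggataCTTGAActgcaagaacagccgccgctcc

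TTTGAA was found in 5 of the 9 genes (PLK1, CDC20, CCNB2, CDC25C and CDK1) and CCAAT in all 9, counting a gene when any of its entries held the motif. Genes with more entries had more chances: CDC25B and CDC25C had 4 each and CDK1 and AURKB 2 each. In PLK1 and CCNB2 a TTTGAA began 29 bases before the start, and in 1 of the 4 CDC25C entries 30 bases before it. At the matching place CCNB1 had TTTAAA, beginning 30 bases before the start, and CCNA2 had CTTGAA, 28 bases before it. CDC20 and CDK1 had no TTTGAA at that place. In CDC20 it lay 178 and 65 bases before the start. In the printed CDK1 entry it lay 69 and 13 bases before the start and at position 10 after it. In the other CDK1 entry it lay 161 bases before the start. CCAAT boxes stood 32 bases apart in CCNB1 and in the printed CDK1 entry, 33 bases apart in CCNB2 and 45 apart in CDC20. Other neighbouring boxes were 124 bases apart in CCNB2 and 17 and 188 apart in a CDC25C entry that is not printed. Both TTTGAA and CCAAT lay within the 100 bases before the start in 1 entry of each of those 5 genes, among the 17 entries of the 9 genes. Over all promoters, counted by entry and not by gene, the share was 0.923%. AURKB and CDC25B had no TTTGAA in these windows. A match is a description of the letters and not of binding.

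Among the cyclins of the set and CDK1, CCNB1 (ENSG00000134057) fell most. Cyclin genes outside the set, such as CCNF below, were not part of this ranking. CCNB1 encodes cyclin B1, the main mitotic partner of CDK1. It measured 305 TPM in the lowest, 333 in the median and 344 in the highest normoxia sample, and 258, 261 and 270.0 TPM likewise in hyperoxia. Every hyperoxia value lay below every normoxia value, a separation shown by 2.58% of all tested genes in this direction and by 6.2% in the other. The log2 fold change was -0.33 (SE 0.03, limma, Benjamini-Hochberg adjusted p = 1.58e-05).

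CCNB2 (ENSG00000157456), the second B cyclin, measured from 183 to 193 TPM in normoxia (median 190.2) and from 158 to 178 TPM in hyperoxia (median 167). Its groups did not overlap either, with hyperoxia replicate 1 nearest to the normoxia values, and the log2 fold change was -0.17 (SE 0.03, limma adjusted p = 0.00293). CCNA2 (ENSG00000145386), the cyclin that acts from S phase onward, measured from 83.0 to 94.7 TPM in normoxia (median 88.6) and from 78.2 to 87.7 TPM in hyperoxia (median 80.3). Hyperoxia replicate 1 lay within the normoxia range, and the log2 difference of -0.12 (SE 0.04) had a limma adjusted p of 0.0501. With hyperoxia replicate 1 left out that p was 0.0242, and after median-of-ratios scaling it was 0.00805, within a range of 0.00719 to 0.226 over all alternatives. The exons of CCNA2 overlap those of EXOSC9 on the opposite strand in GENCODE 29, and EXOSC9 rose from 38.2 to 44.7 TPM. How the counting used strand is not given in the sources used here, so the reads of the 2 genes may not be fully separated.

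CDK1 (ENSG00000170312), the catalytic partner of these cyclins, had the smallest log2 fold change of the 10 and also some of the tightest values. It measured from 152 to 163 TPM in normoxia (median 159) and from 143 to 148 TPM in hyperoxia (median 146). The groups did not overlap, and the log2 fold change was -0.12 (SE 0.03, limma adjusted p = 0.00716). The CV, the SD as a percent of the mean, was 2.42% in normoxia and 1.57% in hyperoxia, against 8.76% and 7.49% for PLK1.

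The CDC25 phosphatases switch CDK1 on. CDC25C (ENSG00000158402), which acts at entry into mitosis, was the least abundant of the 10, at 18.5 to 20.3 TPM in normoxia (median 19.5) and 14.1 to 16.9 TPM in hyperoxia (median 15.6). Its groups did not overlap, and the log2 fold change was -0.31 (SE 0.05, limma adjusted p = 0.00149). Its exons overlap FAM53C on the opposite strand in GENCODE 29, and FAM53C rose from 23.1 to 28.2 TPM; the same limit on strand holds. CDC25B (ENSG00000101224), which starts CDK1 activation at the centrosome, measured from 62.0 to 75.5 TPM in normoxia (median 71.5) and from 57.0 to 72.0 TPM in hyperoxia (median 60.6). Here 3 hyperoxia samples lay inside the normoxia range, with hyperoxia replicate 6 the highest of its group. The log2 difference of -0.18 (SE 0.06) had a limma adjusted p of 0.061, which became 0.015 without hyperoxia replicate 6 and 0.00827 after median-of-ratios scaling. Over all alternatives it ranged up to 0.312.

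Of the 3 mitotic kinases PLK1 fell most. PLK1 (ENSG00000166851), the Polo-like kinase that helps to activate CDC25C and builds spindle poles, measured from 90.4 to 113 TPM in normoxia (median 99.8) and from 62.4 to 77.0 TPM in hyperoxia (median 70.1). The groups were far apart relative to their spread, and the log2 fold change of -0.52 (SE 0.06, limma adjusted p = 0.000133) stood at percentile 1.77 of all tested genes, counted from the lowest. AURKA (ENSG00000087586), the centrosomal Aurora kinase, ranged from 117 to 125 TPM in normoxia (median 121.9) and from 90.1 to 100.4 TPM in hyperoxia (median 93.8). Again the groups did not overlap, and the log2 fold change was -0.37 (SE 0.03, limma adjusted p = 1.07e-05).

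AURKB (ENSG00000178999), the kinase of the chromosomal passenger complex at centromeres and the midzone, ranged from 149 to 181 TPM in normoxia (median 164) and from 134 to 151 TPM in hyperoxia (median 142). Hyperoxia replicates 4 and 6 lay just above the lowest normoxia sample. Its log2 fold change was -0.20 (SE 0.05, limma adjusted p = 0.011), and the call was lost under an exact rank-sum test (adjusted p = 0.0559), with a range of 0.000876 to 0.107 over all alternatives.

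CDC20 (ENSG00000117399), the APC/C coactivator that starts anaphase, was the most abundant of the 10. It measured 405, 435 and 473 TPM in the lowest, median and highest normoxia sample and 315, 329 and 354 TPM in hyperoxia. The groups did not overlap, and the log2 fold change was -0.39 (SE 0.04, limma adjusted p = 9.32e-05).

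The order of the levels was nearly the same in both groups: CDC20, CCNB1 and CCNB2 were highest and CDC25B and CDC25C lowest. AURKB stood above CDK1 in normoxia and below it in hyperoxia, but the sample values of these neighbours overlapped in both groups. PLK1 was above CCNA2 in normoxia with overlapping values. In hyperoxia it was below CCNA2 without overlap, and its values overlapped those of CDC25B. TPM is scaled by length, so these levels can be set side by side.

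The normoxia samples were not alike for every gene. PLK1 averaged 94.2 TPM in normoxia replicates 1 to 3 and 107.7 TPM in replicates 4 to 6, and CDC20 averaged 409.6 and 463 TPM. For AURKA the same means were 122 and 120.6 TPM, and for CDC25C 19.9 and 19.1 TPM. Against normoxia replicates 1 to 3 alone the log2 fold change of PLK1 was -0.42 and that of CDC20 -0.30, and against replicates 4 to 6 alone they were -0.62 and -0.48. In the first of these fits 7 of the 10 were called lower, AURKB being lost (limma adjusted p = 0.107), where 2.58% of all tested genes were called lower. In the second 7 were also called, CDK1 being lost (limma adjusted p = 0.0573), where the background was 3.05%. The labels name no batch, and what separates these samples was not tested.

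**Figure D2:**
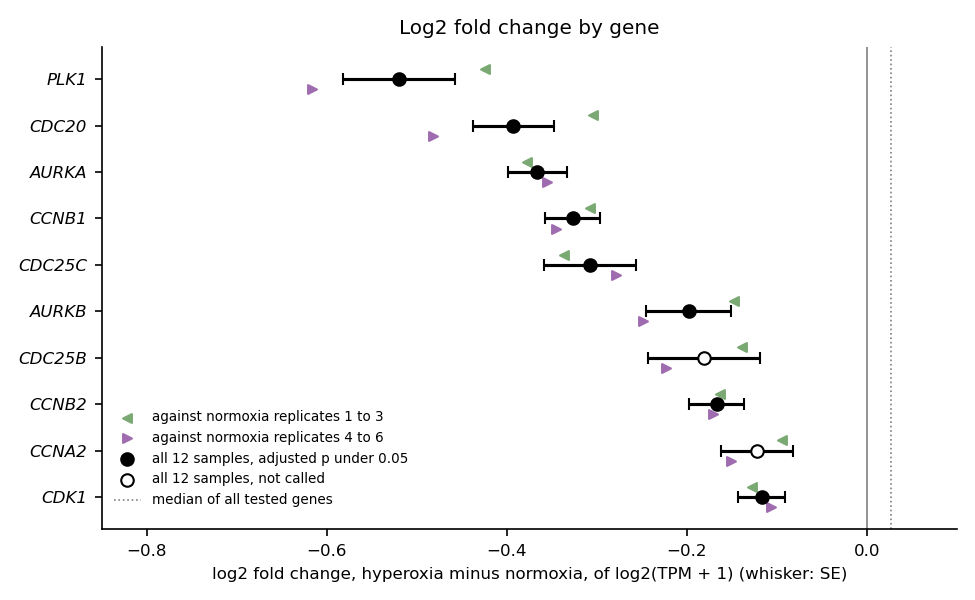
Log2 fold change of each transcript, hyperoxia minus normoxia on the log2(TPM + 1) scale (x axis), with whiskers of 1 SE, filled circles for the called genes and open circles for CCNA2 and CDC25B. Triangles give the value against normoxia replicates 1 to 3 or 4 to 6 alone, which differ most for PLK1 (-0.42 and -0.62) and CDC20 (-0.30 and -0.48), and the dotted line marks the median of all tested genes, 0.03.

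Related transcripts were then set against each other within each sample, as the log2 ratio of their TPM + 1 values, in 8 pairs. The difference of that ratio between the groups was tested two-sided by exact permutation of the group labels (924 arrangements), with Benjamini-Hochberg adjustment across the 8 pairs. By that test 5 pairs differed. The smallest p that this design can give is 0.00216. The ratio of CCNB1 to CCNB2 went from 0.80 ± 0.06 to 0.64 ± 0.07 on the log2 scale (SD, n = 6 each, exact adjusted p = 0.0104), with cyclin B1 RNA lower relative to cyclin B2 RNA in hyperoxia. The ratio of CCNB1 to CCNA2 went from 1.89 ± 0.08 to 1.68 ± 0.05 (exact adjusted p = 0.00577). CDK1 rose relative to CCNB1, with log2 ratios between -1.13 and -0.94 in normoxia and between -0.86 and -0.81 in hyperoxia (exact adjusted p = 0.00577). For CCNB2 against CCNA2 the change in ratio was -0.04 (SE 0.04, exact adjusted p = 0.32).

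Between the kinases, AURKA dropped relative to AURKB by 0.17 (SE 0.06, exact adjusted p = 0.0104) and PLK1 relative to AURKB by 0.32 (SE 0.05, exact adjusted p = 0.00577). The change of PLK1 relative to AURKA was -0.15 (SE 0.07, exact adjusted p = 0.0693), and that of CDC25B relative to CDC25C was 0.13 (SE 0.06, exact adjusted p = 0.0693). Neither passed, and both SEs leave room for a difference.

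**Figure D3:**
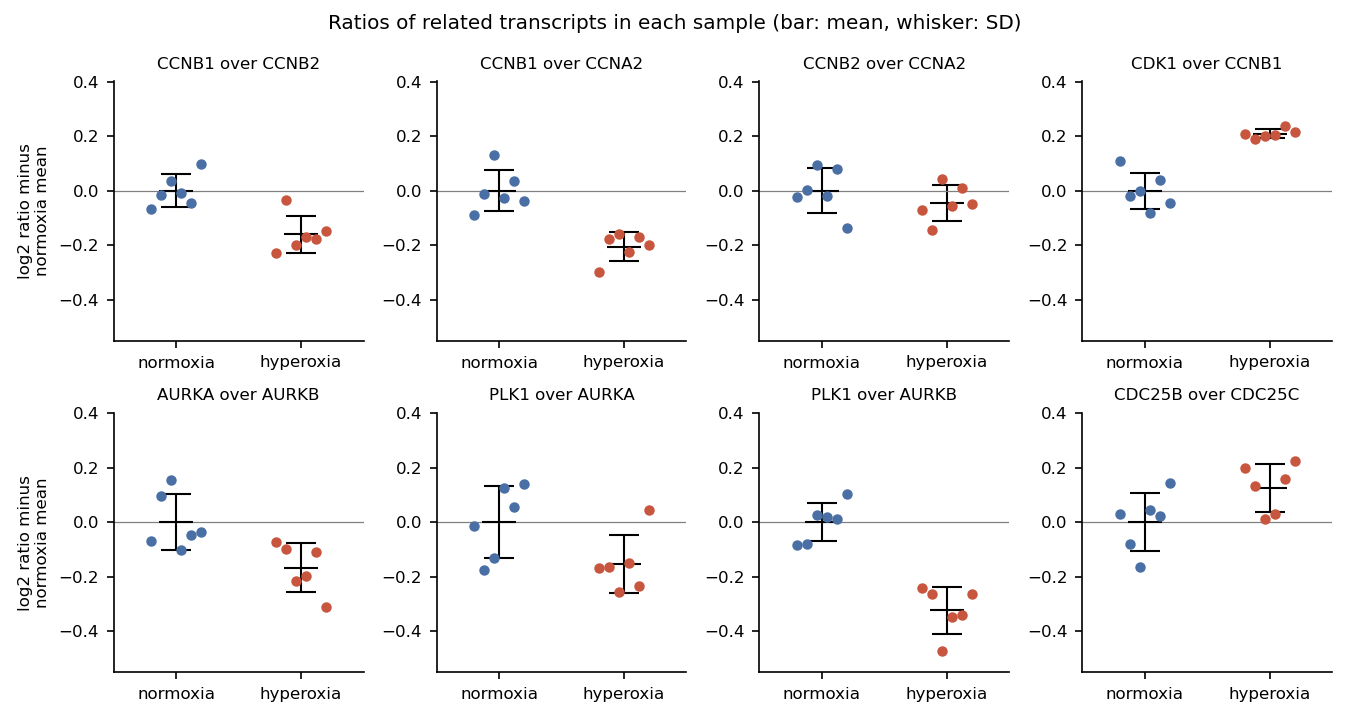
Log2 ratio of 2 related transcripts in each sample, minus its normoxia mean (y axis), for the 8 pairs, with normoxia in blue, hyperoxia in red, bars at the mean and whiskers of 1 SD (n = 6 each). The groups are separate for CCNB1 over CCNA2, CDK1 over CCNB1 and PLK1 over AURKB, and they overlap for the other 5 pairs.

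The other genes that act on these regulators came from lists chosen by function. The background for every count below is that 5.63% of all tested genes were called lower and 11.7% higher. After median-of-ratios scaling 1277 of the 14520 were lower and 1279 higher. The share lower was 2.58% in the fit without normoxia replicates 4 to 6 and 3.05% in that without replicates 1 to 3. Of 12 cofactors of the Aurora and Polo kinases 8 fell, none rose and 4 did not pass, with a median log2 fold change of -0.24. BORA, which lets Aurora A activate PLK1, fell from 20.6 to 15.3 TPM (log2 fold change -0.40, SE 0.05). TPX2, the spindle activator of Aurora A, fell from 315 to 269 TPM (-0.23, SE 0.03), and CDCA8, the borealin subunit of the Aurora B complex, fell from 83.7 to 66.1 TPM (-0.33, SE 0.05). The count lower was the same after median-of-ratios scaling, 5 without normoxia replicates 4 to 6 and 7 without replicates 1 to 3.

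Of 12 further mitotic kinases 3 fell and none rose, with a median of -0.08. Those called were the checkpoint kinase BUB1 (from 108 to 92.6 TPM, log2 fold change -0.22), PBK (from 39.3 to 33.2 TPM, -0.24) and the citron kinase gene CIT of cytokinesis (from 28.5 to 21.7 TPM, -0.38). Called or not, 11 of the 12 had a log2 fold change below 0, against 6224 of all 14520 tested genes. BUB1B was not in this list, and its deposited values disagree with each other, so its level is not read here.

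The 21 tested genes that regulate CDK1 or its relatives went both ways, with 6 lower, 4 higher and 11 not called. CCNF, the cyclin F of an SCF ubiquitin ligase, fell from 23.8 to 15.8 TPM (log2 fold change -0.57, SE 0.06), and CKS2, a small CDK-binding subunit, fell from 464 to 395.5 TPM (-0.23, SE 0.04). CDKN1A, the CDK inhibitor p21, rose from 25.9 to 42.1 TPM (0.68, SE 0.05). CDC25A, the family member that acts mainly at G1/S, rose from 23.5 to 30.5 TPM (0.37, SE 0.05), while CDC25C fell. WEE1, which phosphorylates and inhibits CDK1, measured 18.9 and 17.8 TPM (-0.08, SE 0.07, limma adjusted p = 0.451). The list median was 0.01, and -0.02 after median-of-ratios scaling, so its sign depends on the scaling. Without normoxia replicates 4 to 6 the list had 4 lower and 4 higher, and without replicates 1 to 3 it had 6 and 3.

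Of 19 genes of the APC/C and its partners 2 fell and 4 rose, or 4 and 2 after median-of-ratios scaling, and the median was 0.00. UBE2C, the E2 enzyme of the APC/C, fell from 387 to 344.6 TPM (log2 fold change -0.17), while the subunit genes ANAPC13 (0.24) and CDC23 (0.19) rose. The other gene called lower was itself a subunit gene, CDC27 (-0.14), so the subunit genes went both ways. Without normoxia replicates 4 to 6 the counts were 1 and 0, and without replicates 1 to 3 they were 1 and 1. Of 7 genes of the Greatwall and PP2A-B55 branch 2 rose, PPP2R2A (0.24) and ENSA (0.14). PPP2R2A encodes a B55 subunit of the phosphatase that removes CDK1-dependent phosphates, and ENSA, once phosphorylated by the Greatwall kinase, inhibits that phosphatase. The list gave 2 higher and 0 lower calls, or 1 higher and 1 lower after median-of-ratios scaling. Without normoxia replicates 4 to 6 none of the 7 was called, and without replicates 1 to 3 only 1 rose.

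Of 16 genes for the transcription factors of G2/M genes (the MuvB core and its partners, NF-Y, B-MYB and FOXM1), 14 did not pass. With 1 lower and 1 higher call, the share lower was 6.25%, near the 5.63% of all tested genes. FOXM1, the forkhead activator of G2/M genes, fell from 112 to 97.3 TPM (log2 fold change -0.20, SE 0.06, limma adjusted p = 0.0257), and MYBL2, which encodes B-MYB, rose from 146 to 158 TPM (0.12, SE 0.04, limma adjusted p = 0.0368). After median-of-ratios scaling 2 fell and none rose. In neither fit with only 3 normoxia samples was any of the 16 called.

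The 20 S phase and replication genes also went both ways, with 6 lower and 4 higher and a median of -0.03. Without normoxia replicates 4 to 6 they were 4 lower and 5 higher, and without replicates 1 to 3 they were 6 and 3. MCM6 and MCM7, subunits of the replicative helicase, fell by 0.30 and 0.28 on the log2 scale, and the G1/S cyclin gene CCNE2 rose by 0.42. The deposited table's own pathway annotation marked 124 of the tested genes as cell cycle genes, 8 of the 10 among them (all but AURKA and AURKB). Of the other 116, 16 fell and 17 rose, with a median of 0.02. This set was chosen after the values were seen, and 4 of the 124 have deposited values that disagree with each other. After median-of-ratios scaling 31 of the 124 were lower and 13 higher, against 22 and 17 before it. Without normoxia replicates 4 to 6 they were 16 and 15, and without replicates 1 to 3 they were 19 and 11.

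**Figure D4:**
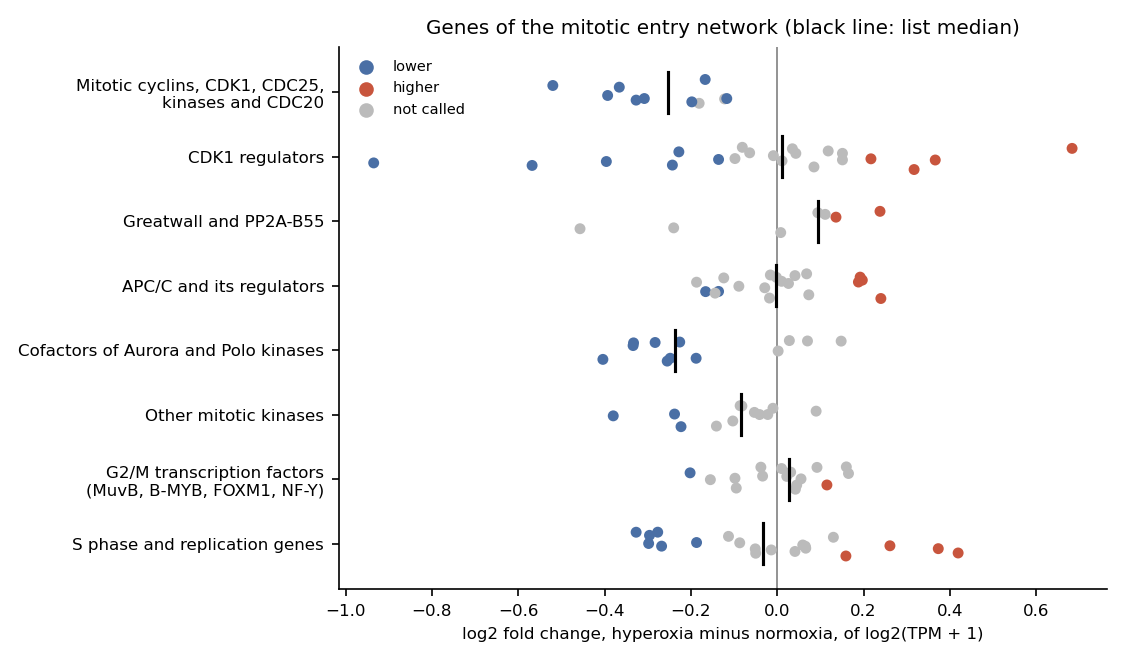
Log2 fold change (x axis, hyperoxia minus normoxia) of every tested gene in the 10-gene set and in 7 lists of the mitotic entry network (y axis), with blue points for genes called lower, red for higher and grey for not called, and a black line at each list's median. All 10 genes (median -0.25), 8 of 12 Aurora and Polo cofactors (-0.24) and 11 of 12 other mitotic kinases (-0.08) lie below 0. The 6 lists other than the cofactors, those kinases among them, have medians between -0.08 and 0.09.

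The genes most like the 10 were found by Pearson's r with the mean of their standardised log2 values over the 12 samples, among tested genes outside the set. They were CCNF (r = 0.987), MCM7 (0.987), the zinc-sensing receptor gene GPR39 (0.979), the xylosyltransferase gene XXYLT1 (0.978) and the cancer-testis antigen gene MAGEA4 (0.975). All 12 points share the group difference, which any gene that fell also has. With the group means removed the highest were the lamin gene LMNB1 (r = 0.932), AC138866.2 (0.93), the histone gene H2AX (0.928), TTC26 (0.919) and REXO1 (0.915). LMNB1 measured 120.8 ± 6.61 and 102.9 ± 6.49 TPM, H2AX 231 ± 22.3 and 177 ± 15.4 TPM, and AC138866.2 7.92 ± 0.844 and 5.83 ± 0.699 TPM in normoxia and hyperoxia (SD, n = 6 each). The means of TTC26 and REXO1 were higher in hyperoxia, at 6.61 ± 0.628 and 7.29 ± 0.888 TPM and at 24.7 ± 2.36 and 28.1 ± 3.5 TPM in the same order. These are the top values among the tested genes with self-consistent deposited values and are given as a description.

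In the authors' deposited table all 10 genes have a negative log2 fold change with an adjusted p under 0.05, where 14.3% of the genes tested here are listed as lower in that way. Their log2 fold changes run from -0.50 for PLK1 to -0.14 for CDK1 in the authors' deposited table. CCNA2 and CDC25B, not called here, have adjusted p-values of 0.000203 and 4.08e-06 in the authors' deposited table. None of the 10 carries the authors' call of a changed gene, and the calls in the authors' deposited table with self-consistent values all have a log2 fold change of at least 1 in size.

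The TPM columns added up to 996138 to 998797 per sample, and the depth of each sample is unknown since TPM keeps none. Whether the 6 samples of a group are separate cultures is not in the labels, so the p-values cover only the spread among these samples, possibly a technical one. KRT8 and KRT18, keratins of epithelial cells, were high at 603.5 and 955 TPM in normoxia, as was VIM at 3351 TPM. The lung lineage genes NKX2-1, NAPSA, SFTPB and SFTPC and the epithelial genes EPCAM, CDH1 and KRT19 stayed under 1 TPM in each sample, with SFTPC listed at 0 throughout. Of 12 markers of other cell types 10 had a mean under 1 TPM (PTPRC, CD3E and HBB at or near 0), COL1A1 was near 1 TPM, and CD68 measured 44.5 TPM in both groups. Pseudogenes of CCNB2, CDC20 and AURKA reached at most 0.80 TPM in any sample.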

How the data were processed

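The deposited table gives TPM per gene and sample, per the file headers, although its name states another unit. Per the submitters' processing notes the authors counted reads with HTSeq 0.9.1 and normalised and tested them with edgeR 3.16.5; aligner, annotation and TPM formula: not given in the sources used here. Those notes list a mouse genome build, while the identifiers are human. The authors' deposited table also holds group means, the ratio of means with its log2, and p-values raw and adjusted, used only where named. In 78 rows, none of a gene in the lists written for this report, these deposited values disagree with each other.

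Groups came from the titles. Genes were tested with limma 3.58.1 (R 4.3.3; eBayes with trend) on log2(TPM + 1), two-sided, over 14520 genes with a mean of at least 1 TPM, adjusted by Benjamini-Hochberg at a threshold of 0.05. The fitting step was also run on simulated log2 values, drawn independently for each gene and with no shift shared within a sample. That run therefore says nothing about the scaling or about the unlike normoxia samples. Fold changes are on that scale. TMM factors were computed on TPM from their published formula. Promoter motifs were read from RefSeq with Python 3.11.15. The alternatives were another pseudocount, 2 filters, 3 scalings, other variance models, exact rank sums, samples left out, and the replicate number as a block. The members and lists were chosen with earlier results of these data known. All 10 members were named, with up to 3 called genes per list by smallest p, CDKN1A, WEE1, FOXM1 and CKS2 whatever their values, and the 5 most similar genes by each of 2 correlations. EXOSC9 and FAM53C were named for their position, CDC27 as the other APC/C gene called lower, and BUB1B for its disagreeing deposited values.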

Additional observations from a re-analysis of the deposited data

How the results depend on the processing

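The 10 log2 fold changes stayed negative in all 26 alternatives, and the number called lower lay between 7 and 10 (8 to 10 when 1 sample was left out). It was 10 after median-of-ratios, TMM and quantile scaling, with sample weights and with a minimum mean of 5 TPM, and 7 under the exact rank-sum test. Over all tested genes the lower calls numbered 1279 after TMM scaling, 929 with sample weights and 515 under the rank-sum test. With the 5 TPM minimum they numbered 776, among fewer tested genes, and with 1 sample left out 602 to 934. CCNB1, CCNB2, CDC25C, PLK1, AURKA and CDC20 were called in every alternative. Over all tested genes 2516 were called, 1969 to 2456 when 1 sample was left out, 1375 without normoxia replicates 4 to 6 and 1231 without replicates 1 to 3, both chosen after the data were seen and both with fewer samples. Of the called genes 32.5% were lower (818 against 1698 higher), but 1277 were lower against 1279 higher after median-of-ratios scaling and 1208 against 1437 (45.7% lower) after quantile normalisation, so the background of lower calls depends on the scaling. Same-numbered samples did not deviate together (r between -0.117 and 0.017), so the numbers are not treated as pairs. With a replicate block 9 of the 10 were called and 2545 genes in all, 889 of them lower. In the paired form of the ratio test, with the replicate block as sign flips, 0 of 8 pairs passed against 5 without it. There the adjusted p of those 5 pairs was 0.05, just at the threshold, and such a test has few arrangements. Without each sample in turn 5 to 6 pairs passed. Removing the 78 disagreeing rows left 8 called.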

Other observations

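The promoter elements of the mitotic genes were looked up in all tested genes, a step chosen after the motifs of the 10 were seen. Of 100 tested genes outside the 10 with TTTGAA and CCAAT (either strand) in the 100 bases before a RefSeq start, 21 were called lower and 8 higher in hyperoxia (limma, adjusted p under 0.05), with a median log2 fold change of -0.02. Of 2564 genes with CCAAT but no TTTGAA there, 213 were lower and 310 higher (median 0.02), and of 7100 with neither 357 were lower and 983 higher (median 0.04). After median-of-ratios scaling the counts were 28 and 7, 318 and 233, and 589 and 728. The share called lower was 21.0%, 8.31% and 5.03% on the TPM scale. These are counts over genes with no test of the difference, and the genes differ in other ways that were not tested.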
